A study of Homo sapiens with 3 samples.

Results

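Histone genes were examined for binding of the transcription factor SP1 and for H3K27ac, the acetylated form of histone H3 lysine 27 that marks promoters and enhancers in use, as mapped by CUT&RUN in H1299 cells. H1299 is a widely grown cancer cell line, which the labels describe as human lung adenocarcinoma. In CUT&RUN an antibody leads a nuclease to its target in nuclei, and the DNA cut free there is sequenced. The members were the autosomal protein-coding genes of RefSeq (GRCh38.p14) whose symbols follow the naming of the histone families. They numbered 79 of 19122 autosomal protein-coding genes and comprised 69 genes of the replication-dependent families (H2AC, H2BC, H3C and H4C genes and H1-1 to H1-6) and 10 variant genes. The first set is called clustered here, although H4C16 lies apart from the large clusters. The study has 3 libraries, 1 each with an SP1 antibody, an H3K27ac antibody and a control IgG, all from H1299 cells with no treatment or genetic change given in the labels.

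Nucleosomes are built from the core histones H2A, H2B, H3 and H4, and linker histone H1 binds the DNA between them. The replication-dependent genes are short, mostly lack introns, occur as many copies in clusters and are expressed mainly in S phase, and their mRNAs end in a stem-loop instead of a poly(A) tail. Variant genes lie singly, are in general expressed through the cell cycle as polyadenylated mRNAs, and supply histones such as H2A.Z and H3.3. SP1 is a zinc-finger factor that binds GC boxes in many promoters.

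The IgG library was not analysed here. The SP1 list held 5570 peak summits, single bases each with a score, and the H3K27ac list 3201. The score is the authors' own, on a −log10 scale of either p or q, and was compared only within a list. Sequencing depth is unknown, and with 1 library per antibody no value has a replicate, so no p-value was computed. Of 10 markers of lung epithelium and adenocarcinoma, NAPSA had an SP1 summit within 1000 bases of a gene end, of 6 mesenchymal markers SNAI1 had one, and none of 3 blood markers did. The share over all autosomal protein-coding genes was 14.1%, so these counts set no marker group apart. No marker had an H3K27ac summit within 1000 bases of an end, against 0.868% of all autosomal protein-coding genes. Summits alone are no measure of expression, so the label of the line was not tested.

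The first comparison asked how many histone genes had a summit within 1000 bases of either end of the gene span, in the clustered set and in the variant set. SP1 summits lay at 8 clustered genes and at 3 variant genes. The clustered genes were H4C2, H4C3, H4C11, H4C12, H4C16, H1-2, H1-4 and H2BC5, and the variant genes include H2AJ and H2AZ2. An H3K27ac summit lay at 1 gene in all, H2AZ2.

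Among all 79 genes, 11 had an SP1 summit, or 13.9% (95% Wilson interval 7.96 to 23.2), which is close to the 14.1% of all autosomal protein-coding genes. The share was 11.6% in clustered genes (8 of 69, 5.99 to 21.2) and 30% in variant genes (3 of 10, 10.8 to 60.3). Both intervals hold the genome-wide share and overlap each other, so a difference between clustered and variant genes was not detectable at these numbers. The intervals treat genes as independent, which neighbouring histone genes are not. Clustered gene spans are short, which leaves less sequence within reach of a gene end. Of all autosomal protein-coding genes with spans under 2000 bases, 5.73% had an SP1 summit at an end, and of the 64 histone genes with such spans 7 did, or 10.9% (5.40 to 20.9).

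H3K27ac summits lay at 0 of 69 clustered genes, which allows a share of up to 4.35%, and at 1 of 10 variant genes, against 0.868% of all autosomal protein-coding genes. A count of 0 therefore does not set the clustered genes apart. Summits of both libraries lay at H2AZ2, 1 of 79 histone genes, and at 0.178% of all autosomal protein-coding genes. Of the 3201 H3K27ac summits, 147 lay at an autosomal protein-coding gene end. The list therefore says little about acetylation at the ends of any gene set. Signal below the threshold for calling a summit cannot be seen in these lists.

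Within the clustered set, SP1 summits lay at 5 of 15 H4 genes (33.3%, 15.2 to 58.3), against the 14.1% of all autosomal protein-coding genes. They lay at 2 of 6 H1 genes (33.3%), with an interval of 9.68 to 70 that holds the share of all genes. They lay at 1 of 18 H2B genes, and that summit was the one also counted for the neighbouring H1-4. None lay at the 17 H2A genes, which allows a share of up to 17.6%, or at the 13 H3 genes, which allows up to 23.1%, and both limits also hold that share. Differences between families were not tested.

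The H4 genes encode a core histone that is highly conserved in evolution. H4C2, at 26026896 to 26027283 on chromosome 6, had an SP1 summit at 26027573 with a score of 7.59, which lies above 64.9% of the SP1 list. H4C3, at 26103933 to 26104337, had a summit at 26103313 with a score of 5.61, 620 bases outside its low-coordinate end. H4C11 and H4C12 lie near each other in another part of chromosome 6. The summit of H4C11 was at 27823815 with a score of 5.93, 277 bases before the gene's start. The summit of H4C12 was at 27831098 with a score of 4.85, 76 bases beyond the end that lies away from the start. The summit of H4C12 thus stood 462 bases after its start, on the other side of the gene from that of H4C11.

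H4C16 lies apart from the other clustered genes on chromosome 12, at 14770720 to 14771131, beside the variant gene H2AJ. It had 2 SP1 summits, and no other histone gene had more than 1. The summit at 14771364, 233 bases before the start, had a score of 16.2, the highest at any histone gene and above 92.9% of the list. The other, at 14770973 inside the gene, had a score of 5.10. Both also lay within 1000 bases of an end of LOC105369669, a protein-coding entry of the RefSeq table, at 707 and 316 bases.

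The linker histone genes of the chromosome 6 cluster encode subtypes of H1. H1-2, at 26055740 to 26056470, had an SP1 summit at 26056298 with a score of 7.06, inside the gene and 172 bases after its start. H1-4, at 26156329 to 26157115, had a summit at 26157361 with a score of 4.81. That summit lay 246 bases beyond the far end of H1-4 and 760 bases before the start of H2BC5, an H2B gene that runs the same way. Of the start sites in the table, the nearer one to this summit was therefore that of H2BC5.

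**Figure D1:**
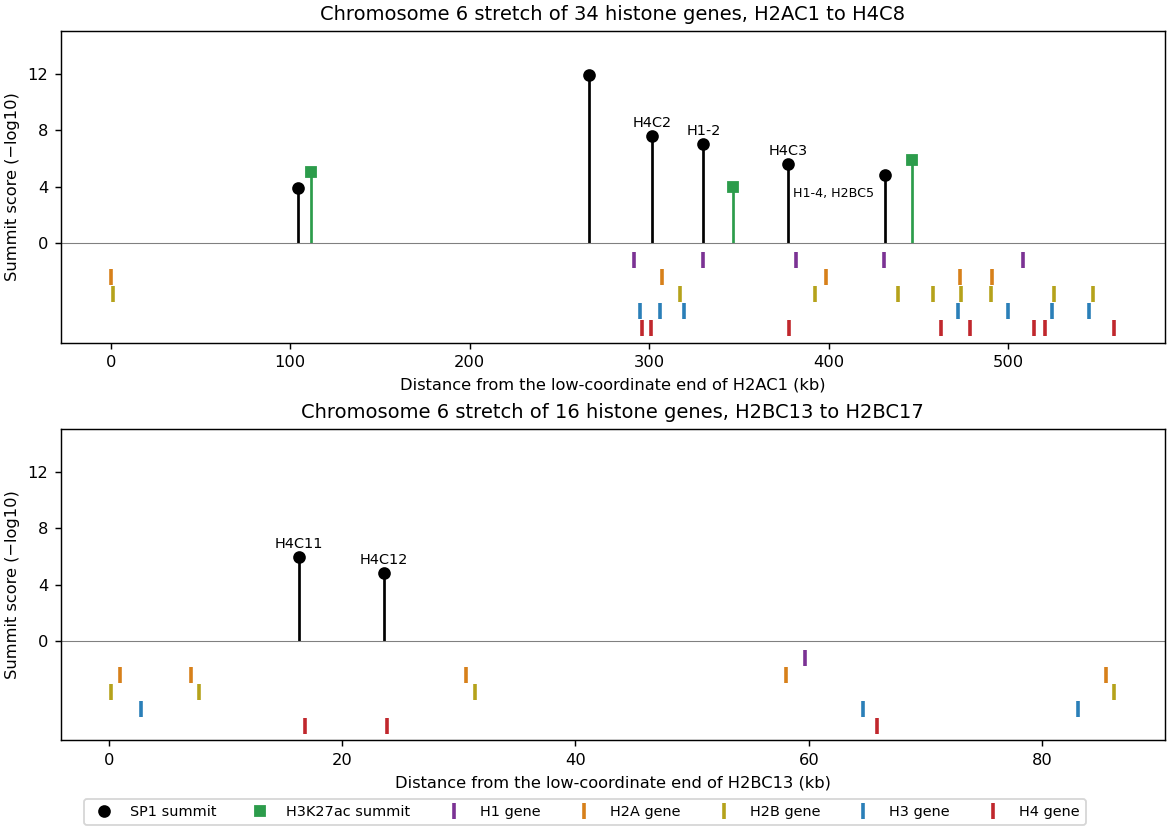
SP1 summits (black circles) and H3K27ac summits (green squares) along the 2 stretches of chromosome 6 that hold most clustered genes, with the score of each summit as height, distance in kb on the x axis and ticks below 0 for the genes of each histone family. In the first stretch 4 of 6 SP1 summits lay at histone genes, in the second 2 of 2, and no H3K27ac summit lay within 1000 bases of a histone gene end.

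Seen as regions, parts of the histone clusters held SP1 summits and other parts none, but the latter were too short for that to set them apart. On chromosome 6 the members fall into 3 stretches when chained over gaps of up to 500 kb. The stretch of 34 genes from H2AC1 to H4C8, 559 kb long, held 6 SP1 summits, or 10.7 per Mb, and the stretch of 16 genes from H2BC13 to H2BC17, 86.4 kb long, held 2, or 23.1 per Mb. Chromosome 6 from its first to its last protein-coding gene held 2.26 per Mb. These densities rest on 6 and 2 summits. The stretches were drawn around packed histone genes, and the chromosome was not matched for gene density. The densities are therefore no measure of enrichment. By gene, SP1 summits lay at 5 of 34 and 2 of 16 histone genes, against 14.1% of all autosomal protein-coding genes. The third stretch, 5 genes from H2BC11 to H2AC12, held none. It is 15.2 kb long, so at 2.26 per Mb a count of 0 sets nothing apart. Its gene closest to an SP1 summit, H2AC12, was 331833 bases from that summit.

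Of the 6 SP1 summits in the first of these stretches, those not at histone genes were nearest to SLC17A1, at 1461 bases, and to TRIM38, at 1593 bases, with scores of 3.91 and 11.9. None of the 6 other protein-coding genes in the stretch, which include the iron regulator gene HFE and the phosphate transporter genes SLC17A1 to SLC17A4, had an SP1 summit within 1000 bases of an end, against 5 of its 34 histone genes. With 6 genes, a count of 0 allows any share up to 50% and sets little apart.

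The cluster on chromosome 1 from H2BC18 to H2AC21 had no summit of either library in 105 kb, and none lay at its 11 histone genes or at H2AC25 and H2BC26, further along the chromosome. Chromosome 1 held 1.96 SP1 and 0.928 H3K27ac summits per Mb, so none in 105 kb sets nothing apart. A count of 0 of 13 allows a share of up to 23.1%, which holds the 14.1% of all genes. The nearest SP1 summit, at 150010267 with a score of 4.16, was 122 kb from H2AC21 and 198 kb from H2BC18. This cluster holds near-identical copies. The promoters of H4C14 and H4C15 matched at 300 of 300 bases, those of H2AC18 and H2AC19 at 299 of 299 after a shift of 1 base, and those of H3C14 and H3C15 at 296 of 296 after a shift of 4. Reads that lie wholly in identical sequence cannot be assigned to a copy. How the authors treated such reads is not given in the sources used here, and its part in the absence of summits was not tested. The promoters of H4C11 and H4C12, which did have summits, matched at 295 of 300 bases. Those summits lie outside the promoters compared, and the likeness of the sequence at them was not examined.

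Among the 3 stretches of chromosome 6, only the largest held H3K27ac summits. The stretch from H2AC1 to H4C8 held 3 H3K27ac summits, or 5.36 per Mb. Chromosome 6, not matched for gene density, held 1.72 per Mb. The other 2 stretches, 15.2 and 86.4 kb long, held none, which at 1.72 per Mb sets nothing apart. The summit at 26172769, with a score of 5.93, lay 1420 bases beyond the high-coordinate end of H2BC5 and was the closest to any clustered gene. The one at 26072772 had a score of 3.97 and lay between H1-2 and HFE, and the one at 25837865 had a score of 5.05 and lay among the SLC17A genes. Each of these 3 summits was in a ranked region of the authors' H3K27ac list. The regions were 425, 398 and 219 bases long and ranked 216, 269 and 1412 of 2710.

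No ranked region of either library lay within 1000 bases of a histone gene, and 0 of the 11 SP1 summits at histone genes were in a ranked SP1 region. Of all 2402 SP1 summits at autosomal protein-coding gene ends, 2.75% were in such a region, so with 11 summits a count of 0 sets nothing apart.

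The variant genes gave 3 with an SP1 summit and 7 without. H2AZ2 encodes H2A.Z.2, a form of the H2A variant placed at promoters by exchange complexes. It spans 44826889 to 44848126 on chromosome 7 and had an SP1 summit at 44847655 with a score of 8.42 and an H3K27ac summit at 44847583 with a score of 3.78. The summits lay 72 bases apart, 432 and 504 bases after the start that the promoter table gives. The H3K27ac score was low in its list, above 7.75% of it. For each of the other 10 SP1 summits at histone genes, the nearest H3K27ac summit was 15.4 kb or more away.

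H2AJ, an H2A variant gene known to be raised in senescent human fibroblasts, spans 14774405 to 14778002 on chromosome 12. It had an SP1 summit at 14774061 with a score of 7.65, 344 bases before the start. Both SP1 scores, at H2AZ2 and at H2AJ, were above the list median of 6.17.

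No SP1 summit was found at the other 7 variant genes. H2AX, whose product is phosphorylated at DNA breaks, had its nearest SP1 summit 6559 bases away, with a score of 12.1. H3-3A and H3-3B, which both encode H3.3, had theirs 360749 and 109170 bases away. H2AZ1, which encodes the other H2A.Z protein, had its nearest at 384179 bases, in contrast to H2AZ2. The broadly expressed linker gene H1-10 was at 193927 bases, the testis gene H1-7 at 203626 and the oocyte gene H1-8 at 422331.

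**Figure D2:**
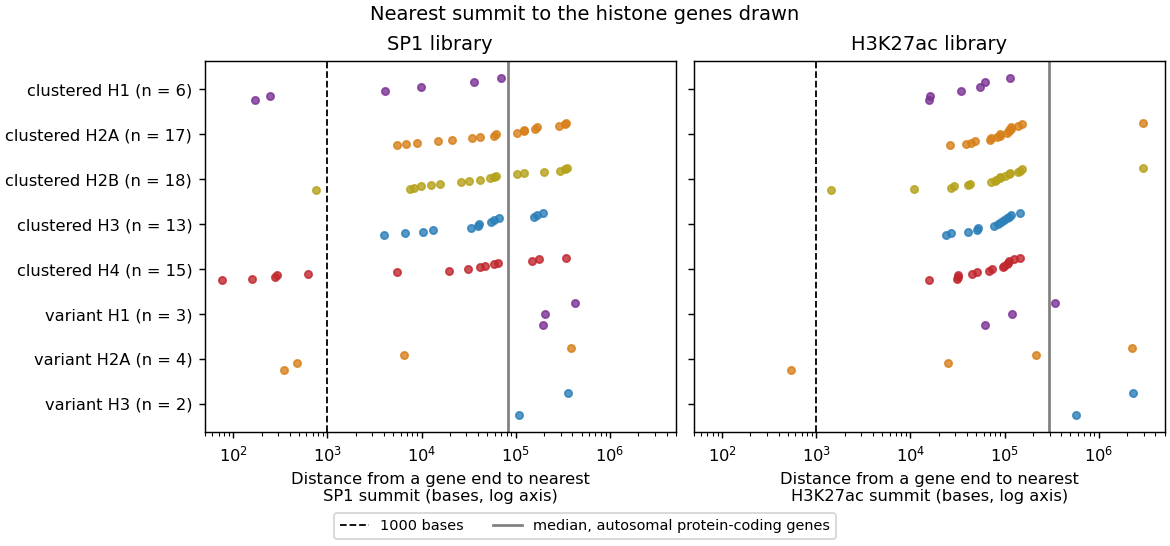
Distance from a gene end to the nearest SP1 summit (left) and H3K27ac summit (right) for 78 of the 79 histone genes by set and family, on a log axis in bases, with the 1000-base limit dashed and the median of autosomal protein-coding genes in grey. In the SP1 panel 5 H4 genes, 2 H1 genes and 1 H2B gene of the clustered set and 2 variant genes lie left of the limit, and in the H3K27ac panel H2AZ2 alone does.

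Few genes lay near the limit of 1000 bases. The members farthest inside it were H2BC5 at 760 bases and H4C3 at 620. The closest ones outside it were H3C2 at 4016 bases, H1-6 at 4099, H2AC4 at 5519, H4C1 at 5523 and H2AX at 6559. For H3K27ac, H2AZ2 was inside at 543 bases, and those closest outside were H2BC5 at 1420, H2BC6 at 10992, H1-4 at 15654, H4C4 at 15941 and H1-2 at 16302. No histone gene had its nearest SP1 summit between 760 and 4016 bases away.

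The median distance to the nearest SP1 summit was 41.4 kb for clustered genes (quartiles 9.79 and 122) and 152 kb for variant genes (1.99 and 321), against 83.3 kb for all autosomal protein-coding genes. An SP1 summit lay within 10 kb of 27.5% of clustered genes and 40% of variant genes, against 22.7% of all. For H3K27ac the medians were 82.7 kb in clustered genes and 282 kb in variant genes, against 300 kb in all. Clustered genes share neighbours, so their distances repeat a small number of summits.

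The scores of SP1 summits at clustered genes were mostly low for summits at gene ends, and those at variant genes were close to the median there. The 8 distinct summits at clustered genes had scores from 4.81 to 16.2 with a median of 5.77, and the 3 at variant genes a median of 8.42. All 2402 SP1 summits at autosomal protein-coding gene ends had a median of 8.17 (quartiles 6.12 and 11.7). Of the 8 summits at clustered genes, 3 were above the median of the whole list and 1, at H4C16, above its upper quartile of 9.04. Of the summits at all gene ends, 1766 of 2402 were above the list median and 1001 above the upper quartile.

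**Figure D3:**
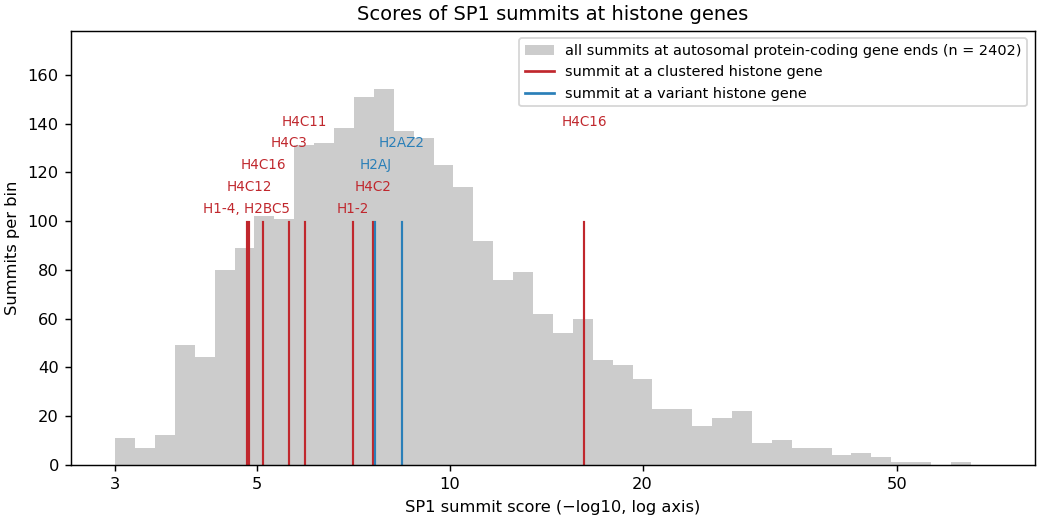
Scores of 10 of the 11 distinct SP1 summits at clustered (red) and variant (blue) histone genes, on a log axis, over a histogram of the 2402 SP1 summits at autosomal protein-coding gene ends. Apart from the H4C16 summit at 16.2, the histone summits drawn lie between 4.81 and 8.42.

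Promoter sequence gives a feature of these genes that the choice of members did not use. RefSeq promoters of GRCh38.p14, 250 bases before to 50 after a start, were matched for 73 of the 79 genes, 64 clustered and 9 variant. Clustered genes with no entry were H4C1, H4C3, H2AC12, H3C11 and H3C12. Exact matches on both strands were counted for the GC box core GGGCGG, which SP1 binds, the CCAAT box CCAAT and the TATA box TATAAA. The octamer ATTTGCAT, bound by POU2F1 in H2B promoters, and the H1 box AAACACA of linker histone promoters were added. A match is a string of letters and not a measured site.

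The following promoters are chosen examples and do not show how often core and summit go together. H4C2, H4C11, H4C12 and H4C16 are the H4 genes with both an SP1 summit and a promoter in the table, and H4C8 is an H4 gene without a summit, chosen after its letters were seen. H1-4 and H2AZ2 show a linker and a variant gene with a summit, and H2AC11, chosen in the same way, an H2A gene without. Each is read 5′ to 3′ along the gene, with the first 250 bases before the start, and capitals mark letters of the 5 motifs on either strand. They lie at chr6:26027234-26027533 (minus strand, H4C2), chr6:27823842-27824141 (plus, H4C11), chr6:27831511-27831810 (minus, H4C12), chr12:14771082-14771381 (minus, H4C16), chr6:26285485-26285784 (minus, H4C8), chr6:26156079-26156378 (plus, H1-4), chr7:44848038-44848337 (minus, H2AZ2) and chr6:27132793-27133092 (plus, H2AC11).
H4C2: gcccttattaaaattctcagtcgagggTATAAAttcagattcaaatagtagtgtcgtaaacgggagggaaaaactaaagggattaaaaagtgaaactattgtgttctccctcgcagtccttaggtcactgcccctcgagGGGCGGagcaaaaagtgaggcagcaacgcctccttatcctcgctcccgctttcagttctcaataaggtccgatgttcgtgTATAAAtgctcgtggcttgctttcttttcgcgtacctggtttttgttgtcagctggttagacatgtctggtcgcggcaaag
H4C11: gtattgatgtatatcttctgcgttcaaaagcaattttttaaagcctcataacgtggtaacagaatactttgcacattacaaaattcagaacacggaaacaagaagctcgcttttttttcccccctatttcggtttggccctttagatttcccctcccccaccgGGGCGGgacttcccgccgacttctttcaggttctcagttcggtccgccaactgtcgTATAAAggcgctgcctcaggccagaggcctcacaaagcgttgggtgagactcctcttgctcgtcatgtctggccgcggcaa
H4C12: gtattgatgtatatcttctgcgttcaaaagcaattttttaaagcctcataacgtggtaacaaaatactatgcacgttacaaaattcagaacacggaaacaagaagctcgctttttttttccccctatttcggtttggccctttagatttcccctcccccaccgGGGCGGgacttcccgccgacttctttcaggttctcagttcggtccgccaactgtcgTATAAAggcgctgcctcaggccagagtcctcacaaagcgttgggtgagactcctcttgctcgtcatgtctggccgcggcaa
H4C16: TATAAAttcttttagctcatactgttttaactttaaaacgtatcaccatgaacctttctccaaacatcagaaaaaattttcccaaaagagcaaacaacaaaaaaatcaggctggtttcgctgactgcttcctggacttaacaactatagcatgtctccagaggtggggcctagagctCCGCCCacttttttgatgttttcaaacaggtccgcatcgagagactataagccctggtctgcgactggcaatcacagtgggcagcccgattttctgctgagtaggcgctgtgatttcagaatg
H4C8: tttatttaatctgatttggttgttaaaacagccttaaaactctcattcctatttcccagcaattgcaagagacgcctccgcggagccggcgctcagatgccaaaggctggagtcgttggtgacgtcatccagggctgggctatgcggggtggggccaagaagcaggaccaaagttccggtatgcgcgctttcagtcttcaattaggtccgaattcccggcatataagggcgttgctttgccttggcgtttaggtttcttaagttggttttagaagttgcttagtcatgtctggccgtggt
H1-4: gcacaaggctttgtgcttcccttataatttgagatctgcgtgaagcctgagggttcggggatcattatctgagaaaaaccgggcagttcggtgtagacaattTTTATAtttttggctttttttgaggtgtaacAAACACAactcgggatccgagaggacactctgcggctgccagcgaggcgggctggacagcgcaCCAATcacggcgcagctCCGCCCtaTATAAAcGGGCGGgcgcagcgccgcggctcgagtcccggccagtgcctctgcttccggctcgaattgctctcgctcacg
H2AZ2: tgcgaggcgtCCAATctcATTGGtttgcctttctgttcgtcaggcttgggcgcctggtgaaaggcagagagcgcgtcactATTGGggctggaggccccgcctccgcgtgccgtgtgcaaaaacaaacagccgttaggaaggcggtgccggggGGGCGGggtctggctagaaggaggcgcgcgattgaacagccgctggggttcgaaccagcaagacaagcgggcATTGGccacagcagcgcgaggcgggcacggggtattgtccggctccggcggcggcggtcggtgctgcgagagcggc
H2AC11: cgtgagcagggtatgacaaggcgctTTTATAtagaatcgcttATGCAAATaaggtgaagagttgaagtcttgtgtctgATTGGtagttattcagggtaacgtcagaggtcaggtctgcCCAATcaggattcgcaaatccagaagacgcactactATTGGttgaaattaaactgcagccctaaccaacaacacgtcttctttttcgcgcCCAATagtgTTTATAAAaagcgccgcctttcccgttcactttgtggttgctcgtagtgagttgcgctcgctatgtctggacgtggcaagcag

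In the H4 promoters with a summit, the GC box core began 111 bases before the start in H4C2, 87 in both H4C11 and H4C12, and 73 in H4C16, where it stands on the other strand. H4C8 had none. H4C2, H4C11 and H4C12 each had a TATA box beginning 31 bases before the start. H4C2 and H4C16 also had one further out, at 223 and 250 bases. H1-4 had GC box cores beginning 37 and 22 bases before the start, on either side of a TATA box. H2AZ2 had a GC box core 98 bases before its start and 4 CCAAT boxes. H2AC11 had CCAAT boxes, TATA boxes, of which one pair overlaps on opposite strands, and an octamer, but no GC box core.

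The H4C16 summit of 16.2 fell inside its printed promoter, 233 bases before the start. The summits of H4C2 and H4C11 lay just before theirs, at 290 and 277 bases, and those of H1-2, H4C12 and H2AZ2 after the start.

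**Figure D4:**
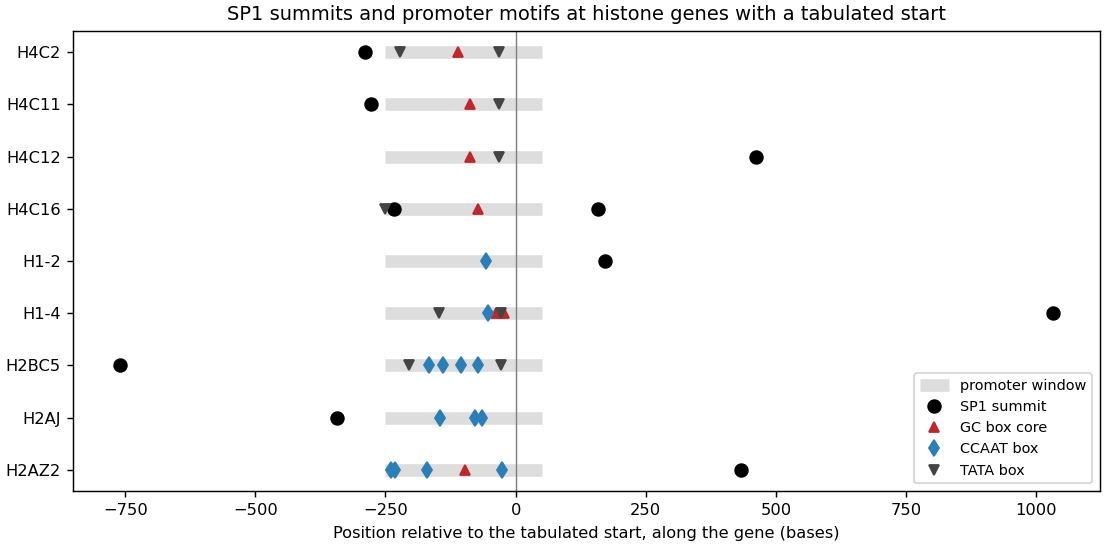
Position of SP1 summits (black circles), GC box cores (red), CCAAT boxes (blue) and TATA boxes (dark grey) relative to the tabulated start, in bases along the gene, for the 9 histone genes that have both an SP1 summit and a tabulated start. The promoter window is the grey bar, and only the H4C16 summit at 233 bases before the start lies in it.

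Over all genes of the set, GC box cores were less frequent in clustered promoters than elsewhere, and the families differed. A GC box core was in 18 of 68 clustered promoters (26.5%) and in 7 of 13 variant promoters (53.8%), against 56.6% of 21155 promoters of autosomal protein-coding genes. H3-3A gives 4 of the 13 variant promoters, all 4 with the core. Counted by gene, 4 variant genes had the core and 5 did not, and 18 clustered genes had it and 46 did not. Among all autosomal protein-coding genes with a promoter in the table, 9752 had it and 5348 did not. Within the clustered set it was in 8 of 13 H4 promoters (61.5%) and 4 of 6 H1 promoters, in 4 of 13 H3 promoters, and in 1 of 16 H2A and 1 of 20 H2B promoters.

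CCAAT boxes were spread over the families in another way. A CCAAT box was in every promoter of the clustered H1, H2A, H2B and H3 genes in the table, 6, 16, 20 and 13 in number, but in 3 of 13 H4 promoters, against 34.4% of all. A TATA box was in 66.2% of clustered and 30.8% of variant promoters, against 9.51% of all. None of the 4 H3-3A promoters had one. The octamer was in 11 of 16 H2A and 15 of 20 H2B promoters, against 1.62% of all, and in no H1 or H4 promoter. Of the 16 H2A promoters, 11 overlap an H2B promoter on the other strand, so matches of any motif in these families are partly the same bases. The 20 H2B promoters come from 18 genes and the 13 H3 promoters from 11. A promoter of H3C4 is the same sequence as that of H2AC7. The H1 box was in 6 of 6 clustered H1 promoters, against 4.43% of all.

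Base composition differed as well. The median GC content was 43.2% in clustered promoters and 61.0% in variant promoters, against 62.7% in all. The median number of CpG dinucleotides in 300 bases was 11 in clustered and 27 in variant promoters, against 21 in all. H3-3A again gives 4 of the 13 variant promoters, so the variant medians lean on that gene.

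**Figure D5:**
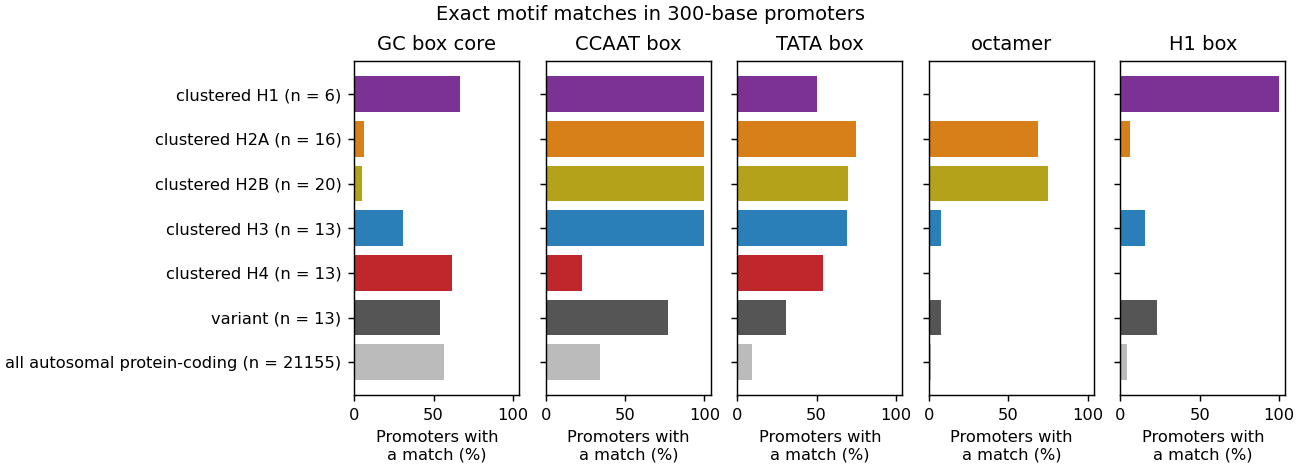
Share of 300-base promoters, in percent, with at least 1 exact match of each motif, for clustered histone genes by family, variant histone genes and all autosomal protein-coding genes. The GC box core is in 61.5% of H4 promoters and in 5% to 6.25% of H2B and H2A promoters, and the CCAAT box in 23.1% of H4 promoters.

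Setting promoters beside summits, clustered genes with a GC box core had an SP1 summit at an end in 5 of 18 cases (27.8%), and clustered genes without one in 2 of 46 (4.35%). Over all autosomal protein-coding genes with a promoter in the table the shares were 19.3% of 9752 and 6.62% of 5348. By clustered family, a summit lay at 4 of 8 H4 genes with the core and 0 of 5 without it, and at 1 of 4 H1 genes with it and 1 of 2 without it. It lay at 0 of 4 H3 genes with the core and 0 of 7 without, at 0 of 1 and 0 of 15 H2A genes, and at 0 of 1 and 1 of 17 H2B genes. The split seen in H4 was not seen in the other families, but these could hardly show it. H2A and H2B had 1 gene each with the core, no H2A or H3 gene had a summit, and H1 had 6 genes. The H4 genes are not independent either. The promoters of H4C11 and H4C12 matched at 295 of 300 bases, and those of H4C14 and H4C15 at 300 of 300. The summit shared by H1-4, with the core, and H2BC5, without it, is counted on both sides, and at 1032 bases from the start of H1-4 it would not count there by starts. The H4 genes with the core but no summit, named after their values were seen, were H4C4, H4C6, H4C14 and H4C15, and the H1 genes were H1-1, H1-5 and H1-6. Variant genes had a summit in 1 of 4 with the core and in 1 of 5 without it. A GGGCGG match is more likely in GC-rich sequence, and the part of base composition in these shares was not tested.

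Counted at starts only, within 1000 bases, SP1 summits lay at 6 of 64 clustered genes and 2 of 9 variant genes, against 15.3% of autosomal protein-coding genes with a start in the table. H1-4 left the count, since its summit is 1032 bases from its start, and H4C3 has no entry.

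Genes that act on histones give a further set of values. In a list of 18 genes of the histone locus body and of histone mRNA processing, 6 (33.3%) carried a summit of SP1, against the 14.1% of all autosomal protein-coding genes. The highest-scoring were ZNF473, which acts in histone pre-mRNA processing, at 14.01, NPAT, the coactivator of the histone clusters, at 8.99, CASP8AP2, which encodes FLASH, at 7.23, and POU2F1, the octamer factor, at 7.07. The processing gene CPSF2, chosen after its values were seen, had the list's only H3K27ac summit, with a score of 4.63. None of 22 chaperone and remodeller genes had an H3K27ac summit, against 0.868% of all autosomal protein-coding genes, which sets nothing apart. Of the 22 genes, 9 had an SP1 summit (40.9%), against the 14.1% of all autosomal protein-coding genes. They include DAXX, a chaperone of H3.3, at 21.7, SRCAP, the motor of a complex that deposits H2A.Z, at 15.7, and the H3 and H4 chaperone genes NASP and ASF1A, at 15.1 each. In a list of other variant histone genes 8 were matched, of which H2BC26 is also a clustered member, and CENPA, the centromeric H3 variant, had an SP1 summit, with a score of 3.55. The share of this list with an SP1 summit was 12.5%, close to the 14.1% of all autosomal protein-coding genes. The lists were chosen with earlier results of these data known and were not tested against other genes, so their shares are no measure of enrichment.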

How the data were processed

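The submitters' processing notes name the build hg38 and the tools cutadapt 2.5 and deepTools 3.4.1 without their roles. Aligner, caller, threshold and use of the IgG control were not given in the sources used here. Each deposited summit list holds 1 base and a −log10 p-value or q-value per peak, the files not saying which. The deposited region lists hold a rank score per region, named in the files as stitched, but not the signal behind it. A deeper library or other control would change which summits pass, so lists were not compared as amounts.

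Summits were counted within 1000 bases of either end of RefSeq gene spans (GRCh38.p14) with Python 3.11.15, pandas 2.3.3 and numpy 2.4.6. Wilson intervals (95%) and the limit of 3 counts for a count of 0 cover counting error only. The limit of 3 counts is rough in small sets and is not the upper end of a Wilson interval. Counting was tested on simulated data.

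Members and gene lists were chosen with earlier results of these data known, and the octamer, the H1 box and the count over short gene spans were added after the counts were seen. The values of 1 variant gene are not reported here, although it is in the counts. The genes named are the other variant genes, clustered genes with a summit, the 5 closest outside the limit, and up to 4 of each list by score. Outside this rule, the report also names genes that were chosen after their values or sequences were seen, for contrast in the promoter results, as near-identical copies, as ends of stretches and for CPSF2. Alternatives were other distances, higher scores, gene interiors, starts only, wider naming and a split by position.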

Additional observations from a re-analysis of the deposited data

How the results depend on the processing

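No paired analysis was possible because each antibody had a single library. Of 36 alternative counts, 27 stayed within 1.5 times the count reported and 9 did not. With scores above the list median, SP1 summits lay at 3 clustered genes and 6 distinct SP1 summits lay at histone genes. With scores above the upper quartile these were 1 gene and 1 summit, and variant genes with an SP1 summit were 0. Of all autosomal protein-coding genes, 10.6% had an SP1 summit above the list median and 6.39% above the upper quartile. Within 2500 bases, H3K27ac lay at 1 of 69 clustered genes, H2BC5, against 1.53% of all. H3K27ac lay at 0 of 10 variant genes within 500 bases, above the list median and above its upper quartile, against 0.418%, 0.413% and 0.235% of all, shares at which these counts set nothing apart. Fewer summits or a narrower window can only lower counts or leave them as they are. The clustered H3K27ac count of 0 was therefore fixed in advance within 500 bases and at higher scores. Those settings are among the 27. A split by position moved H2AJ to the clustered set, which gave SP1 at 9 of 70 clustered and 2 of 9 variant genes. Sequencing depth cannot be read from the deposited lists, so summits missed for lack of reads cannot be counted.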
